A study of Mus musculus with 46 samples.

Results

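The 10 genes described here act in the burning of fatty acids and in the choice of fuel, and comprise Cpt1a, Cpt1c, Cpt2, Acadm, Acadl, Hadha, Ucp2, Pdk4, Angptl4 and Ppargc1a. They were taken by name, with no threshold on a measured value, and they are 10 of the 31854 genes of the RNA count table. The chromatin around them was represented by the 89 ATAC-seq peaks, of 123721 in the table, that lie within 50 kb of an annotated start site of a member. RNA was obtained by translating ribosome affinity purification (TRAP), which pulls down transcripts on a GFP-tagged L10a ribosomal subunit, from the arcuate nucleus (ARC) of male mice. AgRP libraries came from 3 fed, 4 fasted and 4 leptin samples, and POMC libraries from 2 samples of each state. The NuTRAP reporter was switched on by AgRP-IRES-Cre or POMC-IRES-Cre, so the RNA is that of cells with a history of Cre expression, and each AgRP sample pooled the ARCs of 4 mice. The mice were C57BL/6 J, 6 to 11 weeks old. Fed mice had food ad libitum, fasted mice went without food overnight for 18 to 20 hours, and both received PBS by intraperitoneal injection. Leptin mice were fasted in the same way and received leptin at 5 mg/kg in place of PBS, and all tissue was taken 3 hours after injection. ATAC-seq, which reads open chromatin by transposase insertion, was given for sorted AgRP nuclei of the same 3 states (2 libraries each, 4 pooled mice per library). A separate ATAC-seq table held AgRP-positive and AgRP-negative nuclei of untreated fed mice (2 libraries each, both kinds sorted from the same pools). A list of IRF3 CUT&RUN peaks came from 1 sample of AgRP nuclei of fed mice with the constitutively active IRF3-2D allele.

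Long-chain fatty acids enter mitochondria through the carnitine shuttle, in which a carnitine palmitoyltransferase on the outer membrane loads them onto carnitine and CPT2 on the inner membrane releases them, after which acyl-CoA dehydrogenases and the trifunctional protein shorten them step by step. During fasting, peripheral tissues turn from glucose to fat through nuclear receptors of the PPAR family and their coactivator PGC-1alpha, and pyruvate dehydrogenase kinases hold back the entry of pyruvate. AgRP neurons drive feeding and are active in fasting, and fatty acid oxidation with the uncoupling protein UCP2 has been linked to their firing.

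RNA libraries held 25581041 to 54511107 counts, and ATAC-seq libraries of the 3 states 8263234 to 17190963. Marker genes fitted the labels, with Agrp at 313 to 2136 CPM (counts per 1000000 counts of the library, after scaling) in AgRP and 5.88 to 27.4 in POMC libraries, and Pomc at 17.4 to 44.1 and 1128 to 2067. In AgRP libraries Socs3, a target of leptin signalling, rose by 3.73 ± 0.25 (log2, SE) with leptin against fasting. Replicate 4 of every AgRP state and replicate 2 of every POMC state stood apart. Their summed level of 8 astrocyte markers was 21385 to 27046 CPM in AgRP, against 3039 to 4784 in the other 8 AgRP libraries, and 24740 to 28394 against 6223 to 7142 in POMC. Slc1a2, the astrocytic glutamate transporter, made up most of it, at 20180 to 25888 against 2381 to 3850 CPM in AgRP. Without Slc1a2 the sum was still higher, at 1158 to 1231 against 653 to 934 CPM in AgRP, and 5 of 8 markers in AgRP and 7 of 8 in POMC were above all other libraries of that neuron, while Gfap was not in either. Summed oligodendrocyte markers were also higher in these libraries, at 791 to 869 against 501 to 783 CPM in AgRP and 833 to 1040 against 476 to 581 in POMC. So were tanycyte and ependymal markers, at 137 to 193 against 70 to 104 and 145 to 170 against 123 to 144. Endothelial sums overlapped in both neurons, and microglia sums overlapped in AgRP. Member values that changed without these 6 libraries are given both ways. Only replicate 1 is then left in each POMC state, so between the neurons those values are effect sizes alone. In such bulk samples, fewer cells of a type and less RNA per cell cannot be told apart.

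All 10 genes were detected in all 17 RNA libraries and passed the filter of a mean over 1 CPM. Levels of different genes were compared per kb of the exon length in the count table, as CPM per kb (mean ± SD over the 3 fed AgRP libraries). Ucp2, which encodes a mitochondrial inner membrane carrier, stood highest at 140.2 ± 22.7 CPM per kb. Hadha, the alpha subunit of the trifunctional protein, followed at 15.8 ± 1.69, and Cpt1c, the neuronal CPT1 isoform that resides in the endoplasmic reticulum, at 14.3 ± 1.54. The medium-chain dehydrogenase Acadm was at 9.16 ± 1.33, the long-chain dehydrogenase Acadl at 8.78 ± 0.76, Cpt2 at 7.77 ± 1.15 and Ppargc1a, which encodes PGC-1alpha, at 6.13 ± 1.24. Cpt1a, the broadly expressed mitochondrial CPT1 isoform, reached 3.46 ± 0.52. The lowest were Pdk4, a pyruvate dehydrogenase kinase, at 1.34 ± 0.18, and Angptl4, a secreted inhibitor of lipoprotein lipase, at 1.03 ± 0.18. Library ranges overlapped between neighbours for Hadha and Cpt1c, for each step from Acadm to Ppargc1a, and for Pdk4 and Angptl4, so their order is not separated from the spread. With the longest transcript as the length, Ucp2 fell to 55.4 CPM per kb and Cpt1c, at 27.9, moved above Hadha at 18.4.

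**Figure D1:**
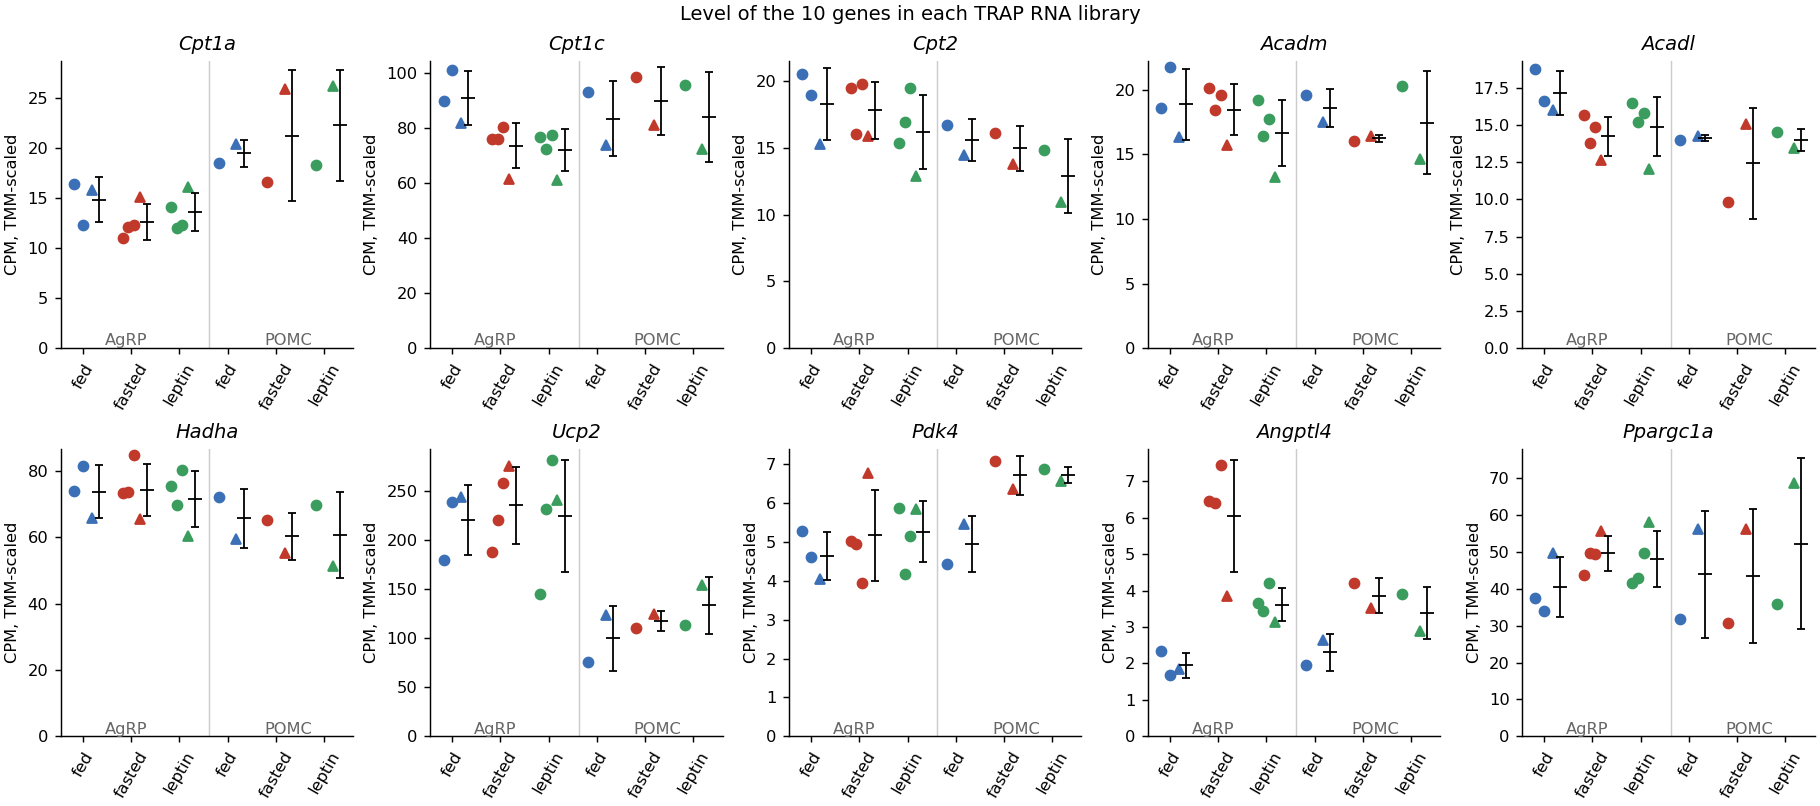
Level of each gene in each TRAP RNA library, in CPM scaled by the trimmed mean of M-values (TMM) over 17 libraries (y axis), by neuron and state (x axis). Circles are libraries, triangles are AgRP replicate 4 and POMC replicate 2, the libraries with high Slc1a2, and bars give the mean and SD. Angptl4 was higher in all 4 fasted AgRP libraries (3.85 to 7.45 CPM) than in the 3 fed ones (1.68 to 2.34 CPM).

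The first comparison asked how fasting changed the fuel genes in AgRP neurons, and of the 10 only Angptl4 passed both the FDR and the fold threshold. Angptl4 (ENSMUSG00000002289.16, GRCm38 chr17:33773750-33781830, minus strand) encodes a secreted protein that restrains the uptake of circulating fat. Its level was 2.34, 1.68 and 1.84 CPM in the fed libraries, 6.46, 6.40, 7.45 and 3.85 CPM in the fasted and 3.67, 3.44, 4.21 and 3.14 CPM in the leptin libraries. Every fasted and every leptin library lay above every fed one, and the fasted library lowest in Angptl4 was replicate 4, which had high Slc1a2. The fitted log2 fold change for fasted against fed was 1.64 ± 0.21 (SE, FDR 0.00198, edgeR). A gene was called where the Benjamini-Hochberg FDR over all 13401 genes tested was under 0.05 and the absolute log2 fold change over 0.5, and 2.82% of all genes were called higher and 1.07% lower. Thus 1 of 10 members was higher and 0 lower. Angptl4 kept its call in every alternative that tested it, with log2 fold changes of 1.51 to 1.79 when single libraries were left out.

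The enzymes of the oxidation pathway gave small differences with fasting. Cpt1c was at 89.7, 101 and 81.7 CPM in the fed libraries, 76.1, 76.0, 80.3 and 61.6 CPM in the fasted and 76.8, 72.3, 77.5 and 61.0 CPM in the leptin libraries. All fed libraries were above all fasted and leptin libraries, and the difference from fed was -0.30 ± 0.11 (log2, FDR 0.141) with fasting and -0.33 ± 0.11 (FDR 0.0797) with leptin. Acadl was at 16.0 to 18.8 CPM in fed and 12.6 to 15.6 CPM in fasted libraries, which did not overlap, with a log2 difference of -0.26 ± 0.11 (FDR 0.220). Throughout, the share of all genes whose groups separate in this way is not given, so non-overlap is a description only. Cpt1a gave -0.22 ± 0.16, Cpt2 -0.03 ± 0.14, Acadm -0.03 ± 0.13 and Hadha 0.02 ± 0.11 on the log2 scale, each with an FDR over 0.5. Replicate numbers paired the AgRP samples, and with the number as a block Cpt1c gave -0.31 (FDR 0.00200) with fasting and -0.34 (FDR 0.000825) in leptin against fed, and Acadl -0.25 (FDR 0.0387) with fasting, all under the fold threshold.

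The regulators and the fuel switch genes differed as little. Ppargc1a was at 34.0 to 49.6 CPM in fed and 43.9 to 55.5 CPM in fasted libraries (log2 difference 0.31 ± 0.17, FDR 0.351). With the replicate block it was 0.34 (FDR 0.0105), and 0.29 (FDR 0.0190) in leptin against fed, both under the fold threshold. Pdk4, which restrains pyruvate oxidation, was at 4.04 to 5.27 CPM in fed and 3.95 to 6.77 CPM in fasted libraries (0.16 ± 0.20, FDR 0.741). Ucp2 was at 180 to 244 CPM in fed and 188 to 275 CPM in fasted libraries (0.10 ± 0.22, FDR 0.874). The median log2 fold change of the 10 members was -0.004, beside 0.017 over all genes.

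**Figure D2:**
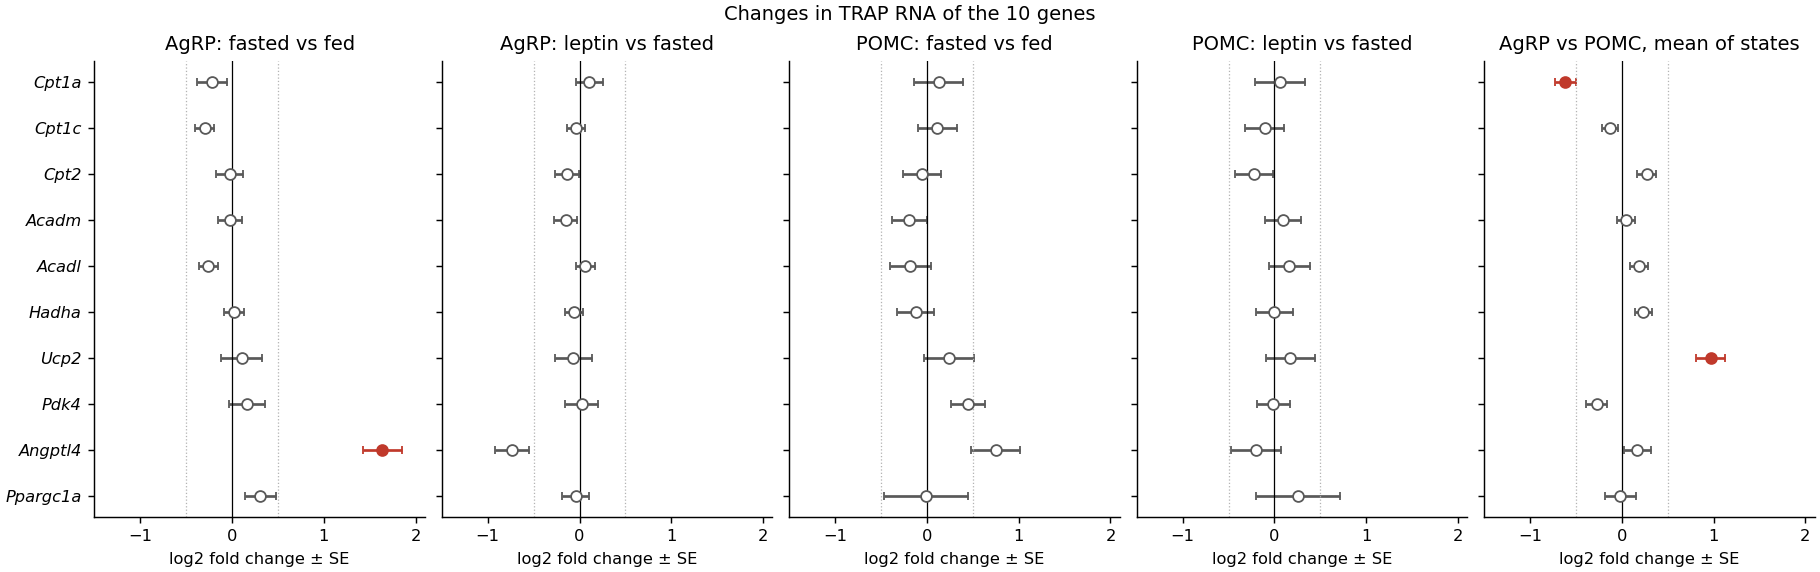
Log2 fold change with its SE (x axis) of each of the 10 genes (y axis) in 5 comparisons of TRAP RNA. Filled red circles are called genes and dotted lines mark a log2 fold change of 0.5 in either direction. Angptl4 (1.64) is the only member called with fasting in AgRP libraries, and Ucp2 (0.97) and Cpt1a (-0.62) are called between the neurons.

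Leptin given to fasted mice was compared with fasting alone, and no member was called. Angptl4 was at 3.14 to 4.21 CPM after leptin and 3.85 to 7.45 CPM in fasting, and these ranges overlapped. Its log2 difference was -0.74 ± 0.18 (FDR 0.0753), where 1.19% of genes were called higher and 0.634% lower. With the replicate block the difference was -0.75 and passed (FDR 0.00397), where 1.10% of all genes were called lower. It also passed with DESeq2 (-0.73, FDR 0.0144), without fasted replicate 4 (-0.90, FDR 0.00867) and, at -0.84 (FDR 0.0144), without the libraries with high Slc1a2. The other 9 members had differences of -0.15 (Acadm) to 0.11 (Cpt1a), each with an FDR of 1.

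Set against the fed state, leptin libraries still held more Angptl4, with a log2 difference of 0.90 ± 0.21 (FDR 0.0259). It was again the only member called, where 3.73% of genes were called higher and 1.75% lower. This comparison shares its libraries with the other AgRP comparisons and is no independent support for them. The call was lost without fed replicate 3, fed replicate 4, leptin replicate 1 or leptin replicate 3, where the log2 difference was 0.80 to 0.90 and the FDR 0.0521 to 0.0995, and with library-size scaling (0.84, FDR 0.136). Among the 11 AgRP libraries the genes whose log2 CPM followed that of Angptl4 most closely were Ptk2b (Pearson r 0.988), Nmb (0.956) and Myof (0.955), a description over libraries that share state and depth.

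The wider pathway was described by 9 lists of 119 genes that were no members, such as other shuttle and beta-oxidation enzymes, fatty acid synthesis and PPAR regulators. Of these, 115 were in the count table and 103 were tested in AgRP libraries. None was called with fasting or with leptin against fasting, and their medians were -0.026 and -0.020 (log2) beside 0.017 and -0.014 over all genes. In leptin against fed, Pprc1, a PGC-1 relative, rose by 0.63 ± 0.14 (FDR 0.0228) and Acsl4, which activates polyunsaturated fatty acids, by 0.56 ± 0.10 (FDR 0.00722), while Lpin1, a phosphatidate phosphatase that also acts as a PGC-1 partner, changed by -0.70 ± 0.09 (FDR 0.00129). The call of Pprc1 was lost without fed replicate 1, 3 or 4 or leptin replicate 2 or 3 (0.54 to 0.69, FDR 0.0519 to 0.0912), and Acsl4 was at the fold threshold without fed replicate 4 (0.498). Both calls were lost with library-size scaling, Pprc1 at 0.58 (FDR 0.0584) and Acsl4 at 0.52 (FDR 0.152). With the replicate block, the list genes called with fasting included Esrrb, an orphan nuclear receptor, at 0.79 (FDR 0.00735), and Angptl2 at -0.79 (FDR 0.0474), where 6.94% of all genes were called in either direction. With the block, leptin against fed called 8 list genes, 3 higher and 5 lower, where 8.57% of all genes were called.

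In POMC libraries no gene of the whole table was called in any of the 3 comparisons (0% of 13412 genes, edgeR). At an unadjusted p under 0.05, 135 genes were higher and 147 lower with fasting, 115 and 36 with leptin against fasting, and 155 and 127 with leptin against fed. DESeq2 called 0 higher and 3 lower, 9 and 1, and 4 and 3, and edgeR with the replicate block 0 and 3, 7 and 1, and 26 and 18, with no member among the latter. Socs3 was among them in leptin against fasting (2.82, FDR 0.00188). Angptl4 was at 1.95 and 2.66 CPM in the fed, 4.20 and 3.52 CPM in the fasted and 3.89 and 2.89 CPM in the leptin POMC libraries. The fed libraries lay below the others, and the log2 difference for fasted against fed was 0.75 ± 0.27 (FDR 1). Pdk4 showed the same order, at 4.43 and 5.46 CPM in fed, 7.07 and 6.35 CPM in fasted and 6.86 and 6.56 CPM in leptin libraries, with a log2 difference of 0.44 ± 0.18 for fasting (FDR 1). Acadm was at 19.6 and 17.5 CPM in fed and 16.0 and 16.4 CPM in fasted libraries, which did not overlap (-0.19 ± 0.19). With 2 libraries a state, groups often separate by chance, so the separations of Angptl4, Pdk4 and Acadm are a description only.

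Whether AgRP and POMC neurons differed in their responses was tested with an interaction term over all 17 libraries. For Angptl4 the fasting effect was larger in AgRP by 0.89 ± 0.36 (log2, FDR 0.450), and the leptin effect differed by -0.55 ± 0.34 (FDR 1). No member was called in either interaction, where 0.164% and 0.0819% of genes were. For Cpt1c the fasting interaction was -0.41 ± 0.22 (FDR 0.657). With the replicate block it was -0.43 (FDR 0.00700), which is under the fold threshold, and 6.22% of genes were called, among them 3 list genes, all lower, Rxrg (-0.60), Ech1 (-0.57) and Sirt3 (-0.53).

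Across states, Ucp2 was higher in AgRP neurons and Cpt1a lower. Ucp2 (GRCm38 chr7:100493337-100502020, plus strand) was at 180, 239 and 244 CPM in fed, 188, 220, 259 and 275 CPM in fasted and 146, 231, 282 and 241 CPM in leptin AgRP libraries. In POMC libraries it was at 76.0 and 124, 110 and 125, and 113 and 154 CPM in the same order of states. Only AgRP leptin replicate 1, at 146 CPM, lay below the highest POMC library. Averaged over the 3 states, the log2 difference was 0.97 ± 0.15 (FDR 0.000327), where 6.51% of genes were called higher and 6.45% lower in AgRP. In fed mice alone it was 1.15 ± 0.24 (FDR 0.0860) and was not called, where 1.06% were called higher and 1.11% lower. Without the libraries with high Slc1a2 it was 1.45 in fed mice and 1.13 over the states. That fit leaves only replicate 1 in each POMC state, so the effect sizes alone are given. In fed mice Ucp2 was called with the replicate block in a fit of all 17 libraries, which was added after seeing the data (1.17, FDR 7.02e-06).

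The RefSeq promoter of Ucp2 (GRCm38, 300 bases around the start, chr7:100493108-100493407, plus strand) is shown because the gene has the highest level and the larger difference between the neurons. It lies inside an ATAC-seq peak at the annotated start and holds none of the motifs searched, so it is all in lower case.
Ucp2 promoter: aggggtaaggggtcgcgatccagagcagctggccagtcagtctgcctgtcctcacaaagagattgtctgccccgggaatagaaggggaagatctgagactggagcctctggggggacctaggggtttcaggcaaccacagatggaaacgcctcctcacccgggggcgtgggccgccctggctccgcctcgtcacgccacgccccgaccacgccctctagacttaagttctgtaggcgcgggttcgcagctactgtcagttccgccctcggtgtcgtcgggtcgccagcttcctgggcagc

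Cpt1a (GRCm38 chr19:3322334-3385733, plus strand) was at 11.0 to 16.5 CPM in the 11 AgRP libraries and 16.6 to 26.2 CPM in the 6 POMC libraries, which did not overlap. The log2 difference over the states was -0.62 ± 0.12 (FDR 0.00122), and in fed mice -0.39 ± 0.16 (FDR 0.367). Markers of astrocytes and oligodendrocytes moved with the level, and their part in it was not tested. In the POMC libraries with high Slc1a2, Cpt1a was at 20.4, 25.9 and 26.2 CPM, against 18.5, 16.6 and 18.4 CPM in the others. Without these libraries of both neurons, which leaves only replicate 1 in each POMC state, the difference over the states was -0.47, under the fold threshold. The other 8 members had log2 differences over the states of -0.27 (Pdk4) to 0.27 (Cpt2), none called. Without the libraries with high Slc1a2, Ppargc1a went from -0.02 to 0.36 and Acadl from 0.19 to 0.34. Both stayed under the fold threshold.

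The Cpt1a promoter from RefSeq (GRCm38 chr19:3323051-3323350, plus strand) is given beside it. Capitals mark the nuclear receptor core AGGTCA, found here on the minus strand as TGACCT, which 16.3% of all 32851 RefSeq promoters hold on either strand.
Cpt1a promoter: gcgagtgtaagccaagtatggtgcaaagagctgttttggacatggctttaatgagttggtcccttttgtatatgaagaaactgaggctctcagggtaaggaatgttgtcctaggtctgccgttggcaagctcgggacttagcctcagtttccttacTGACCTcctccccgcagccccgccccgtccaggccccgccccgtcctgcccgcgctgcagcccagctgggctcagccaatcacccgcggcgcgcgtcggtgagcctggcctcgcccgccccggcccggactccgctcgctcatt
Promoters of 9 of the 10 members were matched by symbol. Cpt1a, Cpt1c and Acadm held the core motif once each, and the other 6 held none of the motifs searched.

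**Figure D3:**
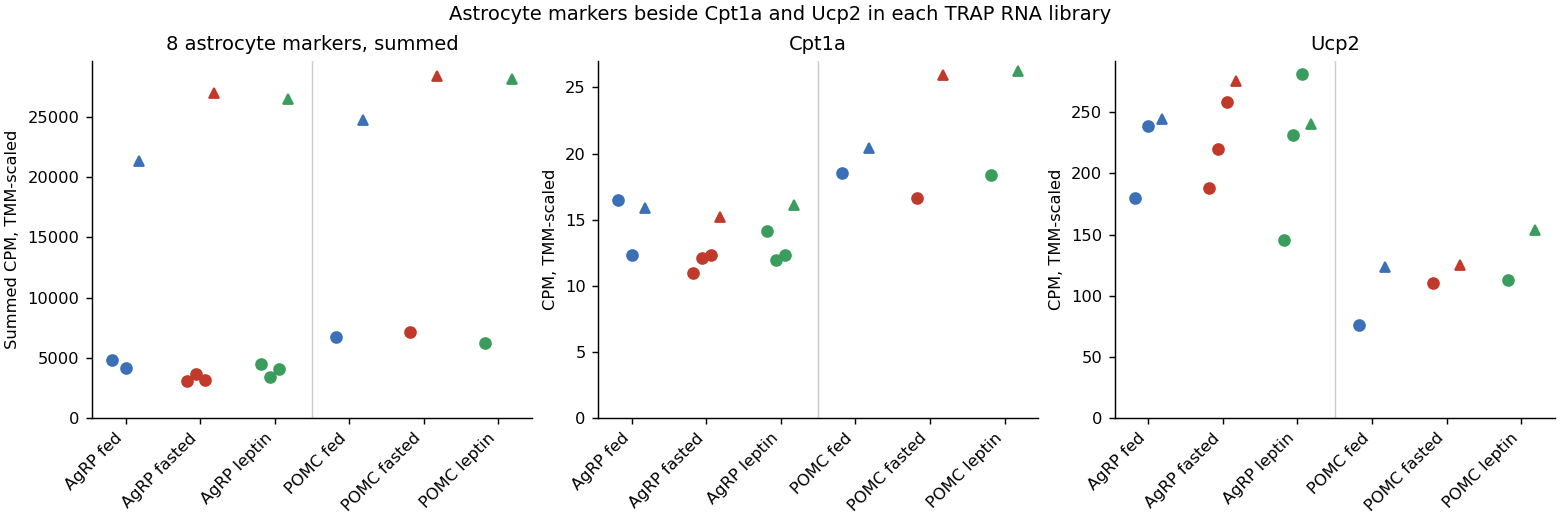
Summed level of 8 astrocyte markers (left), Cpt1a (middle) and Ucp2 (right) in each TRAP RNA library, in TMM-scaled CPM (y axes), by neuron and state. Triangles are the libraries with high Slc1a2, AgRP replicate 4 and POMC replicate 2, at 21385 to 28394 CPM in the left panel. Cpt1a is at 16.6 to 26.2 CPM in POMC and 11.0 to 16.5 CPM in AgRP libraries.

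Over the states, 104 genes of the 9 pathway lists were tested between the neurons, and AgRP libraries held more of 1 and less of 7. Of all genes, 6.51% were called higher and 6.45% lower in AgRP. Esrrb was higher (0.67 ± 0.23). Rxrg, a retinoid receptor that pairs with PPARs, was at -1.15, Decr1, an enzyme for unsaturated fatty acids, at -0.71, and Mgll, a monoacylglycerol lipase, at -0.68. The call of Esrrb was lost without any of 9 single libraries (0.49 to 0.75, FDR 0.0519 to 0.0990), and that of Mgll without AgRP fed replicate 3 or any POMC replicate 2 (-0.65 to -0.55). With the replicate block 13 list genes were called, 3 higher and 10 lower, where 16.9% of all genes were. In fed mice Rxrg alone was called (-0.83 ± 0.14, FDR 0.0409), and not when any of the 5 libraries was left out (-0.97 to -0.67, FDR 0.0533 to 0.256).

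Chromatin near the members was compared next. Of the 89 peaks within 50 kb, 80 passed the filter of a mean over 1 CPM, and 37 of the 89 had the member as the nearest coding gene, so a peak is listed beside a member by distance only. With fasting, 14 of the 80 opened and 3 closed, beside 18.1% and 8.88% of all 102237 peaks tested. Leptin against fasting opened 1 and closed 0, beside 2.41% and 0.669% of all peaks, and leptin against fed opened 14 and closed 3, beside 23.3% and 13.4%. Each state had 2 libraries, and 6 of the 17 peaks called with fasting kept their call in every alternative that tested them, as did 10 of the 17 called in leptin against fed. With 2 libraries a state, groups often separate by chance, so non-overlap of a peak between states is a description only. Peaks are named by the distance in bases from their centre to the nearest annotated start of the member, with minus for upstream.

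**Figure D4:**
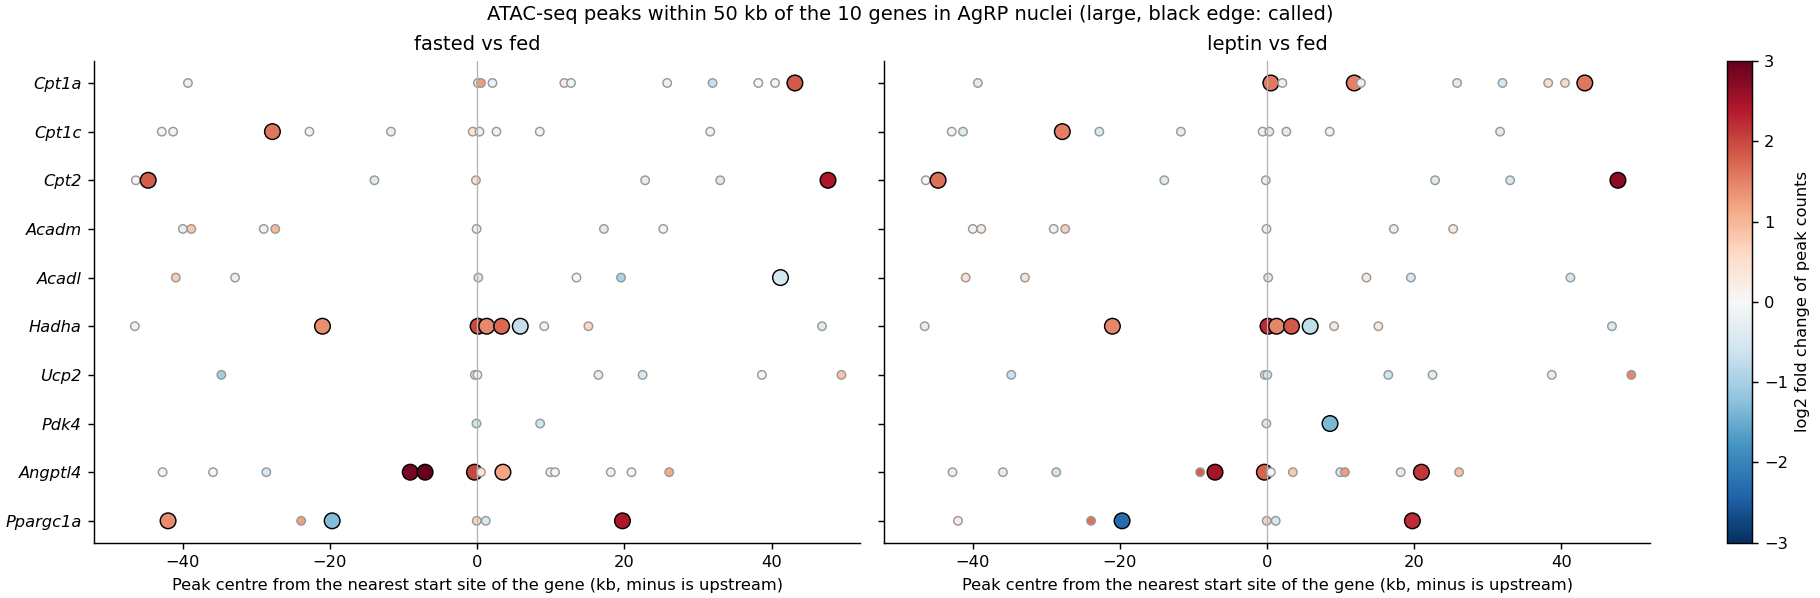
ATAC-seq peaks within 50 kb of each gene in AgRP nuclei, by the distance of the peak centre from the nearest annotated start in kb (x axis) and gene (y axis), for fasted against fed and leptin against fed. Colour gives the log2 fold change of peak counts, and large circles with a black edge are called peaks. Angptl4 has 4 peaks called with fasting, at -9091, -7069, -362 and 3508 bases, all opened.

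Angptl4 held 13 peaks, and 4 of them opened with fasting. The peak at -7069 bases (GRCm38 chr17:33788625-33789173, intergenic, Angptl4 the nearest coding gene) was at 0.38 and 0.95 CPM in fed, 9.37 and 7.32 CPM in fasted and 5.77 and 2.89 CPM in leptin libraries. Both fasted and both leptin libraries were above both fed ones. The log2 fold change was 3.48 ± 0.52 with fasting (FDR 0.000114) and 2.50 ± 0.59 in leptin against fed (FDR 0.00265), and both calls held without each library. Leptin against fasting gave -0.98 ± 0.32 (FDR 0.115). The central 300 bases of this peak are printed because it had the largest opening of the members' peaks. Capitals mark the nuclear receptor core AGGTCA, read as TGACCT on this strand, which 17.9% of all such windows hold.
Angptl4 peak at -7069 bases, chr17:33788749-33789048, plus strand: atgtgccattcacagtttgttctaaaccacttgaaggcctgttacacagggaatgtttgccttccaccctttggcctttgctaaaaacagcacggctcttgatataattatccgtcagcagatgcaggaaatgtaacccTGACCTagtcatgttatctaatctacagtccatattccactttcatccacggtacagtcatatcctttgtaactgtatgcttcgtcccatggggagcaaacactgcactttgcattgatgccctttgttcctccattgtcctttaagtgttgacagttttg

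The other opened peaks of Angptl4 were weaker. That at -9091 bases (chr17:33790739-33791103) was at 0.76 and 0.073 CPM in fed, 2.07 and 2.71 CPM in fasted and 1.76 and 0.68 CPM in leptin libraries, with 2.85 ± 0.75 for fasting (FDR 0.00757), and its call was lost without fed replicate 2 (1.64, FDR 0.178). The peak at -362 bases, just upstream of the gene, was at 0.25 and 0.73, 2.00 and 2.46, and 2.32 and 1.58 CPM in the same order (2.00 ± 0.60, FDR 0.0173), and its call was lost without fed replicate 1 (1.58, FDR 0.113) or fasted replicate 2 (1.85, FDR 0.0679). It was also called in leptin against fed (1.78 ± 0.62, FDR 0.0280), but not without fed replicate 1, fed replicate 2 or leptin replicate 1 (1.36 to 2.87). The peak at 3508 bases, over an exon of Angptl4, gave 1.19 ± 0.37 (FDR 0.0204) and was not called without fed replicate 2 (0.65, FDR 0.306) or fasted replicate 1 (1.11, FDR 0.0758). It holds the glucocorticoid receptor motif, as do 2.34% of all windows. The peak over the start site itself was at 5.79 and 8.34 CPM in fed and 8.47 and 11.4 CPM in fasted libraries, a log2 difference of 0.44 ± 0.30 (FDR 0.290).

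Another Angptl4 peak moved with leptin. The peak at 20978 bases (chr17:33757346-33757628) lies in an intron of Rab11b, its nearest coding gene, and was at 1.38 and 1.97 CPM in fed, 2.65 and 0.95 CPM in fasted and 9.72 and 5.77 CPM in leptin libraries. Both leptin libraries were above all others. It was the only member peak called in leptin against fasting (2.08 ± 0.40, FDR 0.00476), and it was also higher than in fed (2.11 ± 0.45, FDR 0.00107). The first call was lost without fasted replicate 2 (1.52, FDR 0.0616) or leptin replicate 1 (1.69, FDR 0.0987). Its sequence is printed for that change, with capitals on a STAT motif TTCCNGGAA, held by 2.41% of all windows, and on the nuclear receptor core.
Angptl4 peak at 20978 bases, chr17:33757337-33757636, plus strand: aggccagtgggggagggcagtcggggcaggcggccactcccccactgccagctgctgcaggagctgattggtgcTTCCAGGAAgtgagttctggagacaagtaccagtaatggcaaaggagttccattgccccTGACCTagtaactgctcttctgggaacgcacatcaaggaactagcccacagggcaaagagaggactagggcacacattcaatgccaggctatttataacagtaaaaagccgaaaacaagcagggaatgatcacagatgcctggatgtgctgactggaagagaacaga

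**Figure D5:**
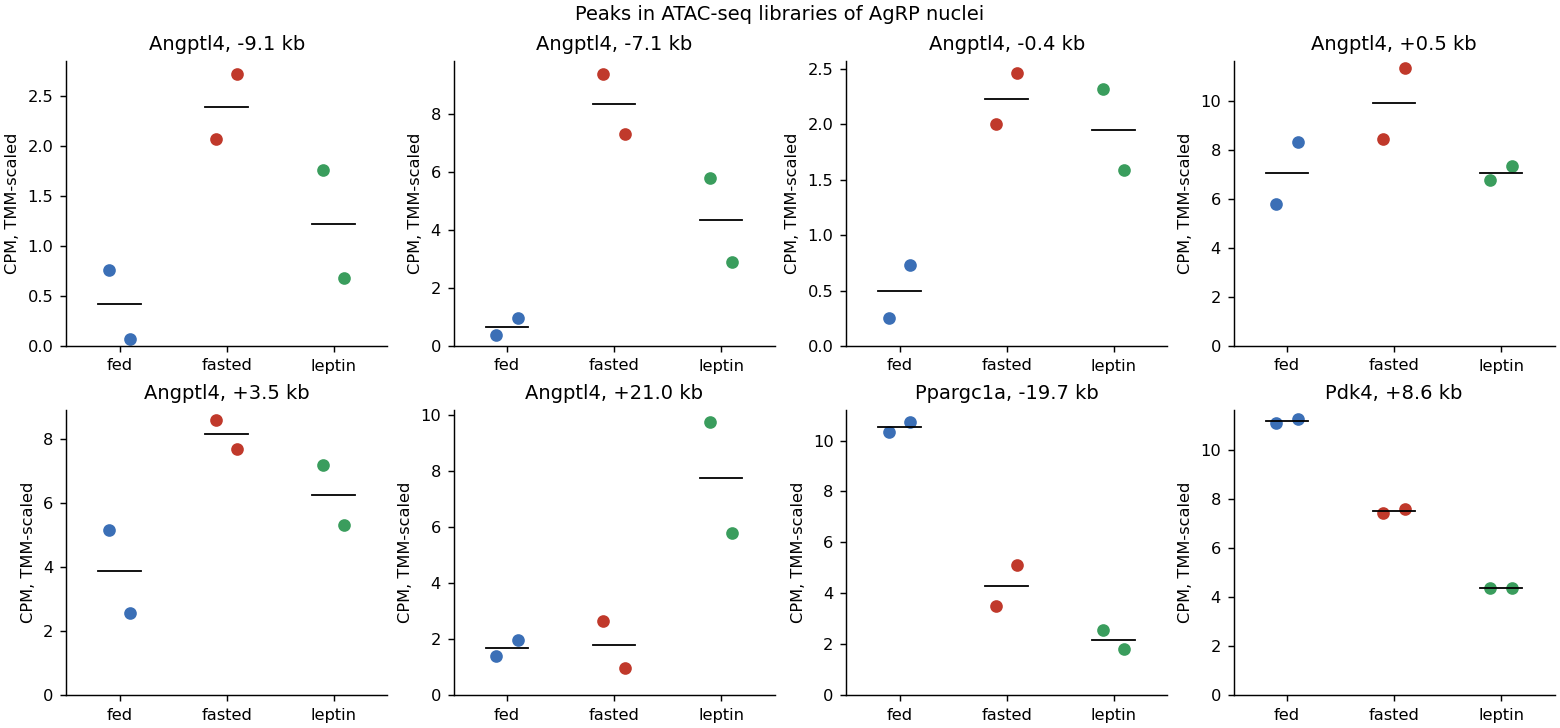
TMM-scaled CPM (y axis) in each of 6 ATAC-seq libraries of AgRP nuclei (points, with the mean as a line) for 6 peaks of Angptl4, 1 of Ppargc1a and 1 of Pdk4, by state (x axis). The peak at -7069 bases of Angptl4 is under 1 CPM in fed and at 7.32 and 9.37 CPM in fasted libraries, and the peak at 20978 bases is at 5.77 and 9.72 CPM with leptin.

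Ppargc1a (GRCm38 chr5:51454250-51567726, minus strand), whose product coactivates PPARs, held 6 peaks that went in both directions. The peak at -19698 bases (chr5:51587119-51587729, intergenic) was at 10.3 and 10.7 CPM in fed, 3.49 and 5.11 CPM in fasted and 2.53 and 1.81 CPM in leptin libraries, with no overlap between any of the states. It closed with fasting (-1.29 ± 0.31, FDR 0.00426) and was lower still in leptin against fed (-2.30 ± 0.35, FDR 7.06e-05), while leptin against fasting gave -1.01 ± 0.39 (FDR 0.207). Without fasted replicate 1 the first value was -1.04 (FDR 0.0566). Its central sequence is printed as that of the strongest closing member peak, and it holds none of the motifs searched.
Ppargc1a peak at -19698 bases, chr5:51587274-51587573, plus strand: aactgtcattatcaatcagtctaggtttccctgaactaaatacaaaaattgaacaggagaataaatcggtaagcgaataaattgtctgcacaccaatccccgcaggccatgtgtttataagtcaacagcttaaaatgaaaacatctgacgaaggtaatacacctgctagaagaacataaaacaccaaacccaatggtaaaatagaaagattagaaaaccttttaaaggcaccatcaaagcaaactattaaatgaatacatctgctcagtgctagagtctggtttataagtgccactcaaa

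An intronic Ppargc1a peak at 19750 bases opened with fasting, from 0.25 and 0.29 to 2.00 and 1.07 CPM (2.43 ± 0.78, FDR 0.0251), on 2 to 31 reads a library, and its call was lost with DESeq2 (FDR 0.0536) and without either fed library (2.34 and 2.55, FDR 0.101 and 0.150). The peak at -41994 bases (1.42 ± 0.52, FDR 0.0474) was at 5.24 CPM in fasted replicate 1 and at most 2.02 CPM elsewhere, and without that library it gave 0.59 (FDR 0.517). Its call was also lost without any other library but fasted replicate 2 (0.92 to 1.79) and with DESeq2. The intronic peak near the inner start, at 1172 bases, was at 14.1 and 13.7 CPM in fed and 10.5 and 9.03 CPM in fasted libraries (-0.51 ± 0.27, FDR 0.168).

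Near Cpt1a, 1 peak opened with fasting. It lies at 43180 bases (chr19:3419288-3419760), where Gal, which encodes the neuropeptide galanin, is the nearest coding gene. Its level was 6.04 and 10.7 CPM in fed, 29.6 and 33.3 CPM in fasted and 29.1 and 25.2 CPM in leptin libraries, well apart from fed in all 4. The log2 fold change was 1.83 ± 0.26 (FDR 7.34e-05) with fasting and 1.61 ± 0.26 in leptin against fed, and both calls held in every alternative. Its central window is printed as one with 3 matches of the AP-1 motif TGANTCA, in capitals.
Cpt1a peak at 43180 bases, chr19:3419374-3419673, plus strand: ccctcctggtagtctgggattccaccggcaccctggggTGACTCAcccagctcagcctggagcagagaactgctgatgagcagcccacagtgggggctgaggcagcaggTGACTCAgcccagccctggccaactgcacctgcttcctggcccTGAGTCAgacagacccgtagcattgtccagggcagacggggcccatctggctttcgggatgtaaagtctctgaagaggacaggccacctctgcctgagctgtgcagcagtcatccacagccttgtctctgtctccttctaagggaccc
At the Cpt1a start site the peak was at 0.63 and 2.27 CPM in fed and 1.55 and 2.84 CPM in fasted libraries (0.41 ± 0.51, FDR 0.559). In leptin against fed, peaks at 520 and 11852 bases were also called, at 1.58 ± 0.62 and 1.51 ± 0.53, and both were lost with DESeq2 and without fed replicate 1, leptin replicate 1 or leptin replicate 2 (1.06 to 1.77), the first also without fed replicate 2 (2.23).

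Hadha (GRCm38 chr5:30118304-30155162, minus strand) had the most peaks called with fasting, with 4 opened and 1 closed of 11 tested. The peak at 134 bases from an internal start (chr5:30126767-30127204) rose from 1.89 and 1.54 CPM in fed to 5.95 and 7.20 CPM in fasted and 7.53 and 8.38 CPM in leptin libraries. Its log2 fold change with fasting was 1.97 ± 0.41 (FDR 0.00162), and this call held without each library. The peaks at 1302 bases (1.43 ± 0.40), 3328 bases (1.73 ± 0.50) and -21012 bases (1.38 ± 0.37, an intron of Hadhb, the beta subunit gene) also opened, and each lost its call without a library: fed replicate 2 at 1302 bases (1.30, FDR 0.111), fed replicate 1 at -21012 bases (1.02, FDR 0.0730), and fed replicate 1, fed replicate 2 or fasted replicate 2 at 3328 bases (1.28 to 2.14). The peak at 5860 bases, within Garem2, closed (-0.73 ± 0.23, FDR 0.0250), and was not called without fed replicate 1 (-0.64) or fasted replicate 1 (-0.53). The peak at the start that Hadha and Hadhb share was at 30.5 and 34.6 CPM in fed and 26.6 and 29.0 CPM in fasted libraries (-0.23 ± 0.19, FDR 0.367).

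Near the other shuttle genes, peaks that opened were nearest to other genes. Cpt2 had a peak at 47678 bases, in an intron of Lrp8, that went from 1.26 and 3.14 CPM in fed to 11.5 and 14.5 CPM in fasted and 18.8 and 13.0 CPM in leptin libraries (2.42 ± 0.40, FDR 0.000244), and a peak at -44695 bases in an exon of Slc1a7 that gave 1.81 ± 0.38 (FDR 0.00163). Cpt1c had a peak at -27816 bases, in an exon of Irf3, at 2.39 and 3.58 CPM in fed and 9.24 and 9.78 CPM in fasted libraries (1.60 ± 0.37, FDR 0.00354). These 3 calls with fasting held without each library. The start-site peaks of Cpt2 (0.51 ± 0.25) and Cpt1c (-0.16 ± 0.23) were not called.

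The dehydrogenase genes and Ucp2 had few called peaks nearby. Acadl had 1 called peak, at 41220 bases in an exon of Kansl1l, at 112 and 110 CPM in fed and 75.4 and 78.1 CPM in fasted libraries (-0.53 ± 0.12, FDR 0.00278), and it was under the fold threshold with library-size scaling (-0.48) and with a filter at a mean of 5 CPM (-0.47). The start-site peaks of Acadl (-0.45 ± 0.37) and Acadm (-0.23 ± 0.13) were not called. Acadm (7 peaks tested) and Ucp2 (7 peaks tested) had none in any comparison. The Ucp2 peak over the annotated start, at 38 bases, was at 10.8 and 13.0 CPM in fed libraries. In fasted libraries it was at 12.0 and 9.59 CPM (-0.17 ± 0.27). The strongest Ucp2 peak, at -306 bases from a start within the gene, was at 77.7 and 79.3 CPM in fed, 78.7 and 73.4 CPM in fasted and 77.9 and 58.7 CPM in leptin libraries (fasting -0.05 ± 0.14). Pdk4 had a peak at 8560 bases, in an exon of the gene, at 11.1 and 11.3 CPM in fed, 7.43 and 7.57 CPM in fasted and 4.37 and 4.36 CPM in leptin libraries. The states did not overlap, and the peak was called in leptin against fed (-1.36 ± 0.30, FDR 0.00162) and not with fasting (-0.58 ± 0.28, FDR 0.125), and the peak at its start gave -0.57 ± 0.40 with fasting (FDR 0.290).

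The AP-1 motif was held by 8 of the 14 opened member windows (57.1%) and by 0 of the 3 closed, and by 15 of the 80 tested member windows (18.8%). Over the whole table it was in 71.1% of the 18511 opened, 5.41% of the closed and 32.2% of all windows. Peaks of the IRF3 CUT&RUN list, from 1 sample of AgRP nuclei of fed mice with the constitutively active IRF3-2D allele, overlapped 15 of the 89 member peaks, and 1 of the 21 called in any of the 3 comparisons (Acadl, 41220 bases). The share over all peaks is not given here, so these overlaps cannot be called high or low.

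The last comparison set AgRP-positive against AgRP-negative nuclei of fed mice, in a table with its own peaks. Within 50 kb of the members 60 peaks were tested, of which 5 were higher and 7 lower in AgRP-positive nuclei, beside 23.9% and 15.6% of all 66560 peaks. The Ppargc1a peak at -19660 bases, at the position of the peak that closed with fasting, was at 3.45 and 2.84 CPM in negative and 9.24 and 13.0 CPM in positive nuclei (1.83 ± 0.32, FDR 1.57e-07). The Pdk4 exon peak at 8636 bases was likewise higher, at 2.46 and 2.25 against 9.16 and 8.08 CPM (1.86 ± 0.37, FDR 3.59e-06). The peak near Gal at 43116 bases from Cpt1a gave 1.80 ± 0.40, and those of Hadha at -21010 bases (1.44 ± 0.60) and of Acadl at 12951 bases (1.04 ± 0.39) were also higher. The Hadha peak lost its call without any single library (1.31 to 1.57, FDR 0.0706 to 0.247), the Acadl peak without any but AgRP-positive replicate 1 (0.92 to 1.06, FDR 0.107 to 0.148), and both with DESeq2.

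Start-site peaks were lower in AgRP-positive nuclei for Acadl, at 15.4 and 18.2 against 8.09 and 9.09 CPM (-0.97 ± 0.22, FDR 0.000108), and for Pdk4, at 14.5 and 13.5 against 5.96 and 9.34 CPM (-0.87 ± 0.24, FDR 0.00146), the latter not called without AgRP-positive replicate 1 (-0.57, FDR 0.0961). The lowest ratio was at the Pdk4 peak at 48523 bases, at 6.77 and 5.45 against 0.80 and 0.50 CPM (-3.22 ± 0.53). Peaks of Ppargc1a at -712 bases (-1.88 ± 0.41), Angptl4 at -296 bases (-2.28 ± 0.59), Cpt2 at 33018 bases (-0.56 ± 0.20) and Ucp2 at 38728 bases (-0.52 ± 0.17) were lower too. The last 3 were not called without AgRP-negative replicate 2 (-2.09, -0.43 and -0.32). That of Angptl4 lies in an intron of the gene, with its distance counted from an inner start. Those of Cpt2 and Ucp2 were also not called without AgRP-positive replicate 1 (-0.51 and -0.47) or with library-size scaling (-0.40 and -0.36). With the replicate number as a block, 2 more peaks passed, Angptl4 at 3572 bases (1.92, FDR 0.0353) and Ucp2 at 16484 bases (-0.80, FDR 0.0479), where 25.9% of all peaks were called higher and 17.4% lower. The sample titles do not tie equal numbers to a pool, and same-numbered sorted libraries had a residual r of only 0.099. The Ucp2 peak at -300 bases was at 33.5 and 41.0 against 41.7 and 51.9 CPM (0.33 ± 0.14, FDR 0.0485), under the fold threshold.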

How the data were processed

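Per the study's methods and labels, RNA reads were aligned with HISAT2 and the authors deposited raw exon counts per gene from featureCounts on mm10. ATAC-seq reads were aligned with Bowtie2, peaks called with MACS2, and the deposited values are raw counts per merged peak. The deposited IRF3 CUT&RUN list gives the total signal per SEACR peak, and only peak positions were used. That list was assigned as the only SEACR list, since its name does not mention IRF3. Whole ARC RNA was not analysed here.

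Only genes and peaks averaging over 1 CPM entered the quasi-likelihood fits (R 4.3.3, edgeR 4.0.16, state as the factor, TMM scaling). FDR is Benjamini-Hochberg over all features tested. A call required FDR under 0.05 together with a log2 fold change past 0.5 in either direction (for ATAC-seq, 0.5 or more). Standard errors are those implied by the F statistic. RNA CPM are scaled over 17 libraries, while fold changes come from each comparison's own fit. Fits were tested on simulated data. Per the methods, AgRP RNA and ATAC-seq samples are separate pools of 4 mice. Replicate numbers paired AgRP RNA samples (residual r 0.536 to 0.814, median 0.700, 10 pairs). POMC pairs gave 0.733 to 0.770, but with 2 samples a state each value mirrors the other number.

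Motifs searched on both strands were AGGTCA, its direct repeat with a 1-base spacer (DR1), the ERR motif TCAAGGTCA (both contain AGGTCA), the CRE TGACGTCA, the palindromic glucocorticoid receptor motif, TGANTCA (AP-1), TTCCNGGAA (STAT) and the FoxO motif TTGTTTAC. Windows were the central 300 bases of a peak, from GRCm38 with pysam 0.24.0, and promoters came from RefSeq (GRCm38.p6). A match is a description. Peaks were overlapped with bedtools 2.31.1. Start sites were all annotated transcript starts.

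The members, lists and the named-gene rule were chosen with earlier results of these data known. All 10 members are named, with every called peak and, for the 3 states, the strongest peak within 1 kb of a start site of each. Also named are at most 6 called genes a comparison from the pathway lists, and the 3 genes most like a called member. A called gene of the pathway lists is not reported here.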

Additional observations from a re-analysis of the deposited data

Results flagged for a closer look

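No member gene stood out within the AgRP fasted or AgRP leptin libraries. AgRP fed and the POMC groups had too few libraries for this test. Of 34 tests of a gene or marker sum for a library far from the others, 4 were marked, where chance marks about 1 in 20. All 4 were replicate 4 of an AgRP state and concerned markers of other cells. The summed astrocyte markers were at 27045.9 CPM in fasted replicate 4 and 26531.4 CPM in leptin replicate 4, mostly Slc1a2. The summed microglia markers were at 40.9 CPM and the summed tanycyte and ependymal markers at 193.4 CPM in fasted replicate 4. Among the 4 fasted libraries, Cpt1a, Ucp2, Pdk4 and Ppargc1a were highest in that replicate, and Cpt1c, Cpt2, Acadm, Acadl, Hadha and Angptl4 lowest. The share of all genes at an end there is not given, so this cannot be read as a trait of the members. What part these RNAs have in the members' levels was not tested.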

How the results depend on the processing

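Of 2116 alternative values of single genes, 2044 kept their side of the threshold, 35 lost and 37 gained a call, and of 520 for single peaks 441, 66 and 13, with 0 reversed. Most of the gene values belong to genes that the main fit did not call, and a loss could fall only on a called gene. The gene total therefore does not measure how well the calls held. Leaving out the libraries with high Slc1a2 was chosen after seeing the data. Under a filter of a mean CPM over 5, which drops Angptl4, the members called higher went from 1 to 0 with fasting and in leptin against fed, the latter also with library-size scaling and in 0 to 1 when single libraries were left out. In leptin against fasting, members called lower went from 0 to 1 (Angptl4) with DESeq2, with the replicate block and without the libraries with high Slc1a2 (0 to 1 over single libraries left out). In AgRP against POMC in fed mice, Ucp2 made 1 called higher with DESeq2, library-size scaling or a fit of all 17 libraries. It was also called in that fit with the replicate block, which was added after seeing the data. Without the libraries with high Slc1a2, only replicate 1 is left in each POMC state, and Cpt1a fell under the fold threshold over the states.

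Member peaks opened with fasting numbered 7 at a mean CPM over 5, 8 within 20 kb and 9 to 13 over single libraries left out, and closed ones 1 to 4. Leptin against fasting opened 0 under the first settings and 0 to 1 over libraries left out. It closed 1 with the replicate block, the Angptl4 peak at -7069 bases (-0.98, FDR 0.0364), and 0 to 1 over libraries left out. Same-numbered ATAC-seq samples shared only a number (r -0.002 to 0.165), and the block moved no other member count by over 1.5 times. Leptin against fed opened 6 at a mean CPM over 5 and 8 within 20 kb, and closed 3 to 6 over libraries left out. Between sorted nuclei, 3 were higher with DESeq2, 2 at a mean CPM over 5, 3 within 20 kb and 3 to 4 over libraries left out, and lower ones were 3 and 4 under the filter and the window. Ucp2 per kb of the longest transcript was 55.4.

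Over all genes, AgRP fasting called 148 higher and 90 lower with library-size scaling (62.2% higher, against 72.6%) and 590 and 340 with the replicate block, and the share called higher over the states between neurons was 65.3% with library-size scaling and 39.6% with the block, against 50.3%. Between sorted nuclei library-size scaling shifted the median of all peaks by 0.163 and the share higher from 60.5% to 71.4%. POMC tests rest on 2 samples a state and ATAC-seq tests on 2 libraries, which limits the differences they can detect.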
